A study of Mus musculus with 2 samples.

Results

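The cells described are the CA3 glutamatergic neurons of the mouse ventral hippocampus, taken as all cells that the authors placed in the clusters Neu_CA3_1 and Neu_CA3_2 of their single-cell table. They number 675 of 8477 cells, with 570 in Neu_CA3_1 and 105 in Neu_CA3_2. The WT library, from a mouse with the valine form of ADCY2 (ADCY2-V151), holds 223 of them. The L151 library, from a mouse homozygous for leucine at the same residue (ADCY2-L151), holds 452. Both libraries come from male mice of 11 to 12 weeks on a C57BL/6J x C57BL/6N background, and papain-dissociated cells were captured with 10x Genomics 3′ chemistry. Of 2 mice per genotype the study kept 1 sample each, so each genotype is 1 library.

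CA3 pyramidal neurons receive the mossy fibres of the dentate gyrus granule cells, excite each other through recurrent collaterals and send the Schaffer collaterals to CA1. The kainate receptor subunit gene Grik4 and Slc17a7, which encodes the vesicular glutamate transporter VGLUT1, are the markers behind the label. Counts per gene were not analysed here, so the name was not checked against these markers and rests on the authors' annotation. Adcy2 encodes the membrane-bound adenylyl cyclase 2, which makes the second messenger cAMP. According to the paper, the donor DNA used to make the leucine allele also carried silent mutations. The codon whose residue differs between the genotypes is shown because it names the libraries compared. It lies in exon 3, in the coding part, on the minus strand of GRCm38, within chr13:68888076-68888102, and the GENCODE M21 sequence around it, read 5′ to 3′ along the transcript with the reference valine codon (V151) in capitals, is as follows.
Adcy2 codon V151: atcatcttcgtgGTGtacaccatgctt

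The deposited table gives, or yields, 5 measures of each cell. UMIs (unique molecular identifiers) count captured RNA molecules, and genes count those with at least 1 UMI. The genes per UMI are their quotient. The mitochondrial percentage is the part of a cell's UMIs that comes from mitochondrial genes, which encode parts of the respiratory chain, and it is widely used as a quality measure of dissociated cells. The doublet score was deposited without a scale. The WT library has 22049587 UMIs in 4055 cells and the L151 library 22276085 in 4422. The libraries share 3 cell barcodes, 0 of which belong to a CA3 cell. Cells are not replicates, and with 1 library per genotype no test was made and no spread between mice can be estimated. The clusters were made by the authors from the genes of the same cells, so values of one cluster beside the other are also a description. Intervals of shares are exact Clopper-Pearson 95% intervals, and where a count is 0 the share that 3 counts would give is named as the limit it allows. Both cover counting error only.

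The CA3 clusters stood in the same proportion in both libraries, while CA3 cells as a whole took a larger share of the L151 library. Neu_CA3_2 made up 15.2% of the CA3 cells of WT (34 of 223, 10.8 to 20.6%) and 15.7% of those of L151 (71 of 452, 12.5 to 19.4%), a difference of 0.461 percentage points, with each share inside the interval of the other. CA3 neurons supplied 5.77% of all UMIs of the WT library and 10.5% of those of the L151 library. These parts are close to their shares of the cells, 5.50% and 10.2%.

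Neu_CA3_2 was the deep cluster in both libraries. In WT its median was 9547.5 UMIs per cell (quartiles 7272 and 11619, range 2148 to 14767), against 4183 in Neu_CA3_1 (2636 and 6561, 820 to 14858), a ratio of 2.28. In L151 the medians were 10616 (7904.5 and 12797, 4149 to 14905) and 3197 (1997 and 5448, 703 to 14744), a ratio of 3.32. The ranges overlap widely, yet the lower quartile of Neu_CA3_2 lies above the upper quartile of Neu_CA3_1 in each library. A randomly drawn Neu_CA3_2 cell had more UMIs than a randomly drawn Neu_CA3_1 cell in 83.2% of all pairs in WT and in 91.2% in L151.

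Genes followed UMIs. Neu_CA3_2 had a median of 3276 genes in WT (range 1300 to 4544) and 3440 in L151 (1914 to 4452). Neu_CA3_1 had 1961 (625 to 4259) and 1644 (491 to 4304). Neu_CA3_2 held 0 cells under 1000 genes in either library, which allows a share of up to 8.82% in WT and 4.23% in L151. In Neu_CA3_1 the share under 1000 genes was 4.76% in WT (9 of 189 cells, 2.20 to 8.85%) and 18.6% in L151 (71 of 381, 14.9 to 22.9%), and these intervals do not overlap. Outside CA3, cells under 1000 genes were also more frequent in L151, at 23.4% of all its cells against 19.0% in WT. The L151/WT ratio of these shares was 1.23 (1.12 to 1.35). Without the CA1 cluster Neu_CA1_2 it was 1.02 (0.920 to 1.13), an interval that includes 1.

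The genes per UMI were lower in Neu_CA3_2, with medians of 0.341 in WT and 0.330 in L151, than in Neu_CA3_1, with 0.475 and 0.508. Among the 33 clusters Neu_CA3_2 had the lowest median of genes per UMI in L151 and ranked 31 from the top in WT. This quotient is tied to depth, because a further molecule is less often of a gene not yet seen. Within Neu_CA3_1 its Spearman correlation with UMIs across cells was -0.984 in WT (n = 189) and -0.958 in L151 (n = 381), where both axes share the UMI count. The gap was therefore also read at like depth, in the band of 8000 to 16000 UMIs, the only band with at least 20 cells of both clusters in a library. There Neu_CA3_2 had medians of 3404 genes in WT (25 cells) and 3752.5 in L151 (52 cells), and Neu_CA3_1 had 3266.5 (34 cells) and 3536 (45 cells), ratios of 1.04 and 1.06. The Neu_CA3_2 cells of this band were themselves slightly deeper, with medians of 10187 against 9686.5 UMIs in WT and 11699 against 10741 in L151. With a straight line of log10 genes on log10 UMIs fitted to Neu_CA3_1, the ratios were 0.9996 in WT and 0.975 in L151. By all UMIs the direction of this small gap thus depends on the way of matching. By UMIs without the mitochondrial part, the line gave ratios of 1.067 in WT and 1.068 in L151. Bands of these UMIs gave 1.137 in L151, with an interval that includes no difference, and WT had too few cells.

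**Figure D1:**
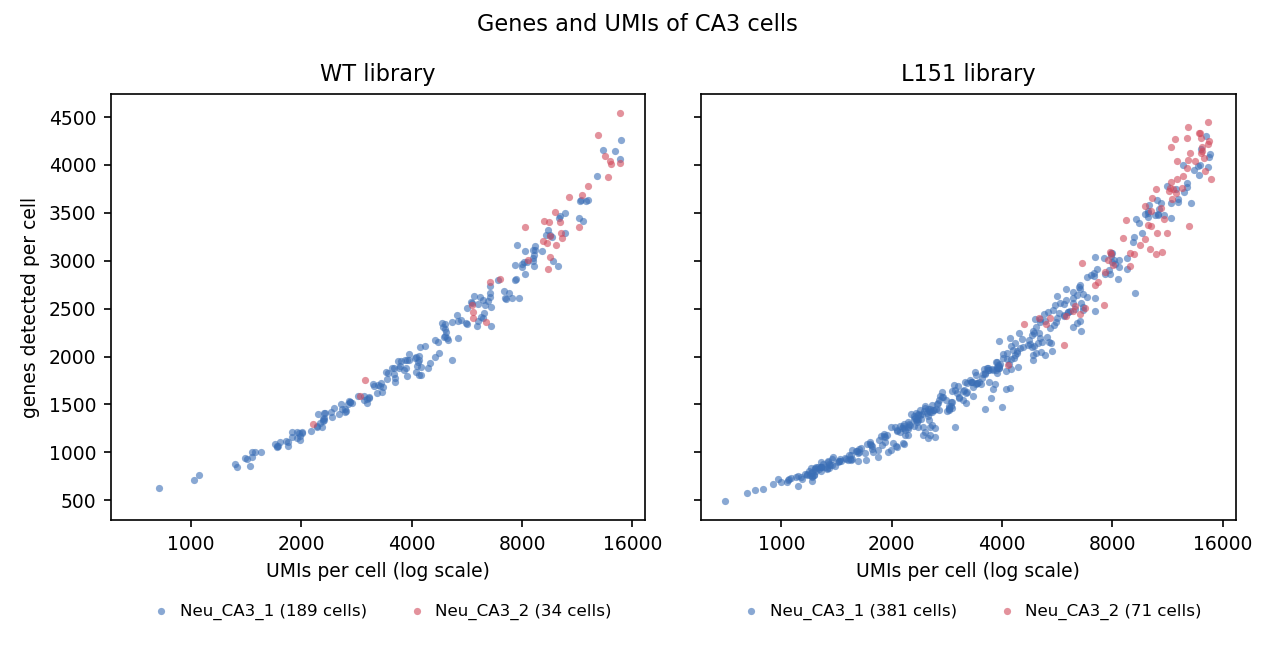
Genes detected per cell against UMIs per cell (log scale) for each CA3 cell of the WT and L151 libraries, with Neu_CA3_1 in blue and Neu_CA3_2 in red. The cells of both clusters lie along a single curve, and Neu_CA3_2 fills its upper end with medians of 3276 genes in WT and 3440 in L151.

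The clusters also differed in their mitochondrial percentage, and this gap was present at like depth. The median of Neu_CA3_2 was 21.4% in WT (quartiles 16.03 and 22.9%, range 0.435 to 24.5%) and 21.4% in L151 (18.6 and 23.5%, 0.341 to 24.95%). Neu_CA3_1 had 7.87% in WT (6.32 and 9.77%, 0.0954 to 21.9%) and 8.02% in L151 (5.86 and 11.2%, 0 to 24.2%). The ratio of medians was 2.72 in WT and 2.67 in L151, and the interquartile ranges of the clusters do not overlap in either library. As absolute numbers, a Neu_CA3_2 cell had a median of 2153.5 mitochondrial UMIs in WT and 2155 in L151, against 341 and 274 in Neu_CA3_1, ratios of 6.32 and 7.86. The UMIs of all other genes were higher too, with medians of 7640.5 and 8323 against 3715 and 2936, ratios of 2.06 and 2.83.

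At 8000 to 16000 UMIs the mitochondrial medians were 21.8% in Neu_CA3_2 and 7.26% in Neu_CA3_1 of WT, a ratio of 2.998, and 21.5% and 5.82% in L151, a ratio of 3.69. The gap at like depth was thus as wide as over all cells. Of all pairs in this band, the Neu_CA3_2 cell had the higher percentage in 91.6% in WT and 96.9% in L151. Of the WT cells with at least 8000 UMIs and at least 15% mitochondrial content, 23 belonged to Neu_CA3_2 and 1 to Neu_CA3_1, and in L151 the numbers were 48 and 3. Among cells as deep but under 15%, 2 and 33 WT cells and 4 and 42 L151 cells belonged to Neu_CA3_2 and Neu_CA3_1. Under 8000 UMIs, Neu_CA3_2 made up 26.7% of the WT cells with at least 15% (4 beside 11 of Neu_CA3_1) and 27.5% of those of L151 (14 beside 37). Among shallow cells under 15% it made up 3.36% in WT (5 beside 144) and 1.64% in L151 (5 beside 299). A high percentage thus went with a larger part of Neu_CA3_2 at either depth. The sources used here do not say whether mitochondrial genes were among the variable genes that made the clusters. Within the clusters the percentage had little relation to UMIs, with Spearman correlations across cells of 0.068 in WT and -0.143 in L151 for Neu_CA3_1 and of 0.216 and 0.025 for Neu_CA3_2, where both axes share the UMI count.

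**Figure D2:**
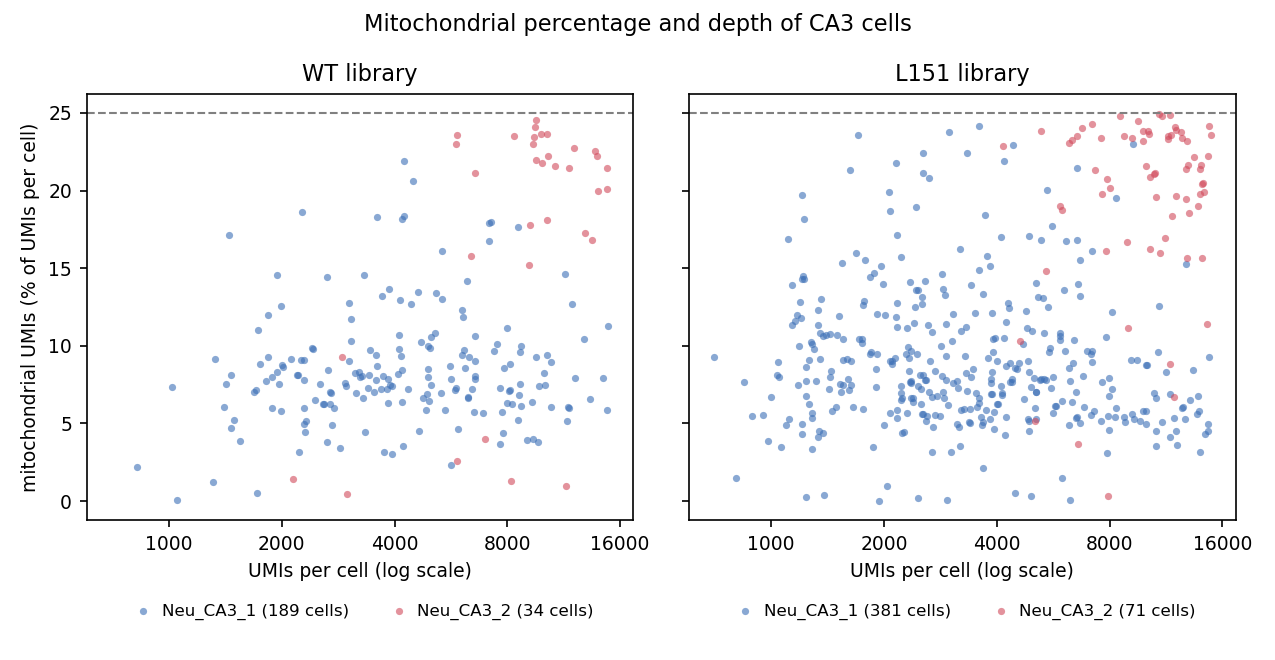
Mitochondrial UMIs in percent of a cell's UMIs against UMIs per cell (log scale) for each CA3 cell, with Neu_CA3_1 in blue and Neu_CA3_2 in red and the authors' maximum of 25% as a dashed line. Most Neu_CA3_2 cells fill the upper right corner under the line, with a median of 21.4% in both libraries, while Neu_CA3_1 has medians of 7.87% in WT and 8.02% in L151 over the whole range of UMIs.

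Neu_CA3_2 lay against the limits of the table. The authors removed droplets over 25% mitochondrial content, and 20 of 34 WT cells (58.8%, 40.7 to 75.4%) and 44 of 71 L151 cells (62.0%, 49.7 to 73.2%) of Neu_CA3_2 had 20% or more. At 24% or more were 2 WT cells and 9 L151 cells of Neu_CA3_2, against 0 and 1 of Neu_CA3_1. For WT Neu_CA3_1 the 0 of 189 cells allow a share of up to 1.59%. The number of UMIs also ends sharply in this table. Over all cell types 171 cells had from 13000 to under 14000 UMIs, 140 had from 14000 to under 15000 and 0 had 15000 or more, and the sources used here state no upper limit of UMIs. From Neu_CA3_2, 2 WT cells (5.88%) and 8 L151 cells (11.3%) had 14000 UMIs or more, from Neu_CA3_1 3 (1.59%) and 4 (1.05%). The medians and the cell numbers of Neu_CA3_2 therefore describe what these limits left, and cells beyond them were not analysed here. With a maximum of 10% in place of 25%, 7 WT and 5 L151 cells of Neu_CA3_2 were left.

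Among the clusters of CA1 pyramidal cells and dentate gyrus (DG) granule cells, the other glutamatergic neurons of the hippocampal circuit, some came near Neu_CA3_2 in depth and others in mitochondrial percentage. Neu_CA3_2 had the highest median mitochondrial percentage of all 33 clusters in each library and ranked 3 in median UMIs in WT and 2 in L151. Next in percentage in WT was GABA_1, a cluster of GABAergic neurons, with 19.2% at 4430 UMIs. In L151 GABA_1 had 16.3% at 4437 UMIs. Neu_DG_1 and Neu_CA1_1 came near in percentage, with 17.2 and 15.7% in WT and 16.7 and 16.3% in L151, but had 3363 and 5149 UMIs in WT and 3594.5 and 5316 in L151. Neu_DG_2 was as deep, with 10573.5 UMIs in WT and 11239 in L151, but had 4.23 and 4.18% mitochondrial UMIs. At 8000 to 16000 UMIs the medians were 21.8% in WT and 21.5% in L151 for Neu_CA3_2, 19.7 and 16.7% for Neu_CA1_1, 12.2 and 10.2% for Neu_CA1_5 and 3.70 and 3.58% for Neu_DG_2. At that depth Neu_CA1_1 of WT was thus the nearest, with quartiles of 16.5 and 21.7% beside 18.1 and 23.0% for Neu_CA3_2. Neu_DG_2 also had more genes in this band, with 4275 in WT and 4471.5 in L151, than Neu_CA3_2 with 3404 and 3752.5. Its cells were deeper within the band, with medians of 11829 UMIs in WT and 12709 in L151 against 10187 and 11699. Neu_CA3_2 made up 0.838% of the WT cells and 1.61% of the L151 cells, yet held 3.71% and 8.67% of all mitochondrial UMIs of these libraries. Neu_CA3_1, with 4.66% and 8.62% of the cells, held 5.03% and 8.07%.

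**Figure D3:**
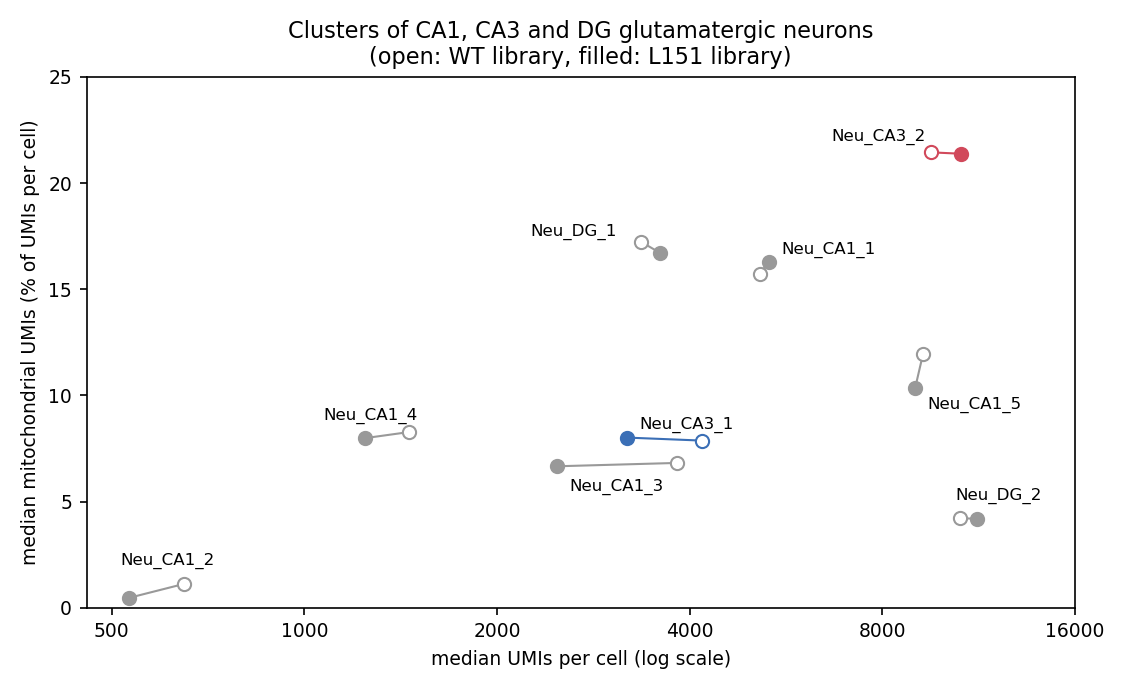
Median mitochondrial percentage against median UMIs per cell (log scale) for the clusters of CA1, CA3 and DG glutamatergic neurons, with the WT library open, the L151 library filled and both joined by a line. Neu_CA3_2 (red) stands alone at 9547.5 and 10616 UMIs with 21.4% in both libraries, and Neu_CA3_1 (blue) moves from 4183 UMIs in WT to 3197 in L151 at nearly the same percentage.

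Between the genotypes, Neu_CA3_1 was shallower in L151 and Neu_CA3_2 was not. In Neu_CA3_1 the L151/WT ratio of medians was 0.764 for UMIs and 0.838 for genes. The lower quartiles were 1997 UMIs in L151 and 2636 in WT and the upper quartiles 5448 and 6561, while the 95th percentiles were close, at 11288 and 11479. An L151 cell had more UMIs than a WT cell in 39.9% of pairs. In Neu_CA3_2 the ratios were 1.11 for UMIs and 1.05 for genes, and the L151 cell had more UMIs in 58.0% of pairs. The L151 minus WT difference of the mitochondrial medians was 0.141 percentage points in Neu_CA3_1 and -0.0637 in Neu_CA3_2. Over both clusters the medians were 3873 UMIs in L151 and 4869 in WT, and weighting the L151 cells to the WT mix of clusters left the ratio at 0.795. This weighting could hardly move the ratio, because Neu_CA3_2 made up 15.2% of the CA3 cells in WT and 15.7% in L151. With cells under 1000 genes left out, the L151/WT ratio of Neu_CA3_1 was 0.912 for UMIs and 0.9404 for genes. Lower medians in L151 were not limited to Neu_CA3_1. Neu_CA1_3 had 2483.5 UMIs in L151 and 3818 in WT. Neu_CA1_2, Neu_CA1_4 and Neu_CA1_5 also had fewer in L151, while Neu_CA1_1, Neu_DG_1 and Neu_DG_2 had more. The libraries as a whole had medians of 4272.5 UMIs in L151 and 4621 in WT, and the part of that difference in the CA3 values was not tested.

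Within bands of UMIs the ratio of genes between the genotypes in Neu_CA3_1 went with the depth that remained unequal inside a band. At 1000 to 2000 UMIs the L151 cells had a median of 907 genes and the WT cells 1063.5, a ratio of 0.853, at medians of 1384 and 1713 UMIs. At 4000 to 8000 UMIs both libraries had a median of 2354.5 genes, in 102 L151 and 66 WT cells. The genes per UMI were 0.422 in L151 and 0.428 in WT there, and 0.531 and 0.537 at 2000 to 4000 UMIs. At 8000 to 16000 UMIs the L151 cells had 3536 genes and the WT cells 3266.5, but the L151 cells were also deeper within this band, with medians of 10741 and 9686.5 UMIs. Averaged over the bands from 1000 to 16000 UMIs, the L151/WT ratio of median genes was 0.976. The mitochondrial percentage at like depth was higher in L151 in the shallow bands and lower in the deep bands. It was 9.16% in L151 and 7.51% in WT at 1000 to 2000 UMIs, and 8.03 and 7.80% at 2000 to 4000. It was 8.03 and 8.65% at 4000 to 8000, and 5.82 and 7.26% at 8000 to 16000. In Neu_CA3_2 at 8000 to 16000 UMIs it was 21.5% in L151 and 21.8% in WT.

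The larger share of CA3 neurons in L151 was unevenly spread over depth within Neu_CA3_1. Cells of this cluster with 1000 to 2000 UMIs made up 2.01% of all L151 cells (89 cells) and 0.641% of all WT cells (26 cells), a ratio of 3.14 (2.01 to 5.06). The ratio was 2.04 (1.50 to 2.80) at 2000 to 4000 UMIs, 1.42 (1.03 to 1.96) at 4000 to 8000 and 1.21 (0.760 to 1.95) at 8000 to 16000, from 45 and 34 cells. The intervals of the lowest and the highest of these bands do not overlap, and that of the highest includes 1. With bands set by UMIs without the mitochondrial part, the ratios were 3.13 (2.05 to 4.91) and 1.49 (0.874 to 2.59), and those intervals overlap. Under 1000 UMIs there were 7 L151 cells and 1 WT cell. Neu_CA3_2 has few shallow cells and its ratio at 8000 to 16000 UMIs was 1.91 (1.16 to 3.21), from 52 and 25 cells, or 2.82 (1.48 to 5.75) by UMIs without the mitochondrial part. In the cells of all other types the ratio was 0.879 (0.775 to 0.997) at 1000 to 2000 UMIs, 0.870 (0.789 to 0.960) at 2000 to 4000, 1.01 (0.932 to 1.09) at 4000 to 8000 and 0.782 (0.712 to 0.859) at 8000 to 16000, but 1.39 (1.19 to 1.62) under 1000 UMIs, where it was 1.15 (0.967 to 1.37) without the shallow cluster Neu_CA1_2. In CA1 glutamatergic neurons without Neu_CA1_2 it was 5.50 (1.22 to 50.6) under 1000 UMIs, from 12 and 2 cells, 1.07 (0.693 to 1.67) at 1000 to 2000 and 1.02 (0.712 to 1.48) at 8000 to 16000. In DG glutamatergic neurons it was 0.448 (0.252 to 0.771) at 1000 to 2000 UMIs and 0.929 (0.666 to 1.30) at 8000 to 16000. The CA1 cluster left out, Neu_CA1_2, held 266 L151 and 82 WT cells, with medians of 532 and 649 UMIs. A larger number of shallow cells in L151 was thus not particular to CA3. More shallow cells and fewer molecules per captured cell cannot be told apart in these data, nor can a difference of genotype from a difference between the dissections.

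**Figure D4:**
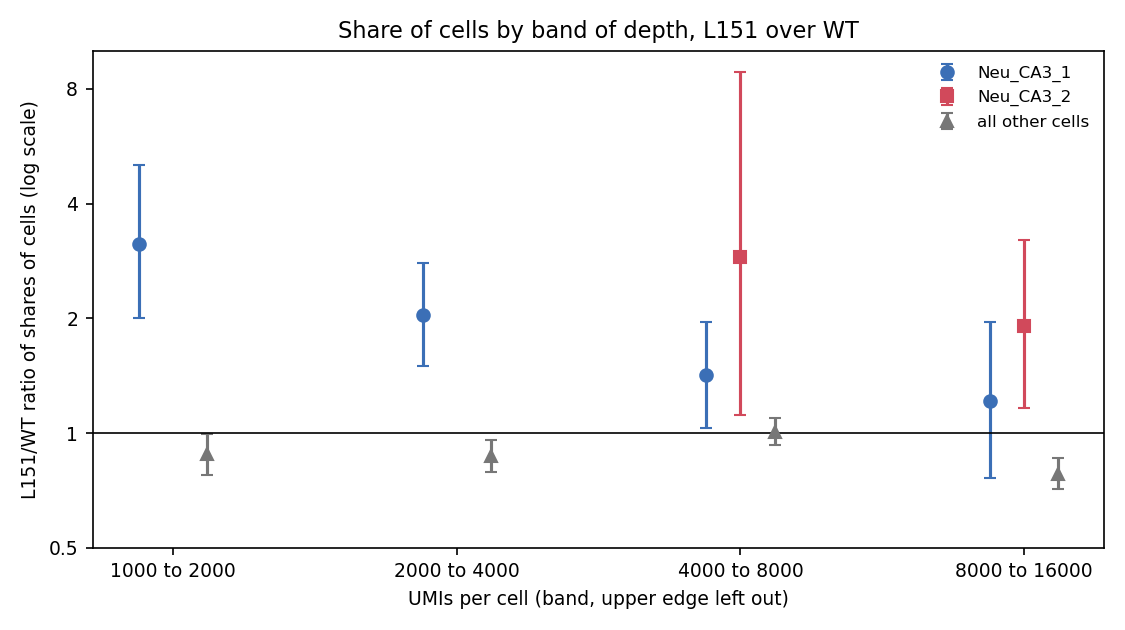
Share of cells in L151 over that in WT (log scale) by band of UMIs per cell for Neu_CA3_1 (blue), Neu_CA3_2 (red) and all cells of other types (grey), with 95% counting intervals as bars, from 1000 UMIs up and without bands in which a library has no cell of the cluster. The ratio of Neu_CA3_1 goes from 3.14 at 1000 to 2000 UMIs to 1.21 at 8000 to 16000, while other cells lie between 0.782 and 1.01 in these bands.

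Doublet scores of the cells that remained after the authors removed doublets were higher in Neu_CA3_2. The median was 2.05 in WT and 2.06 in L151 for Neu_CA3_2 and 1.65 and 1.54 for Neu_CA3_1, differences of 0.409 and 0.515 on the deposited scale. Neu_CA3_2 ranked 5 among the 33 clusters in WT and 3 in L151. At 8000 to 16000 UMIs the medians were 2.05 in both libraries for Neu_CA3_2 and 1.69 and 1.75 for Neu_CA3_1, so the gap was also there at like depth, at 0.365 and 0.306. Neu_CA1_5 had 2.12 and 2.21 in that band. The highest scores of CA3 cells, up to 2.976, were in Neu_CA3_1 in both libraries.

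A score of exactly 0 was given to 26.5% of all cells, taken over both libraries together. The share over all cells of each library was not computed, so the genotype gap in Neu_CA3_1 has no such background beside it. In Neu_CA3_1 a score of 0 was given to 16.9% of WT cells (32 of 189, 11.9 to 23.1%) and 31.2% of L151 cells (119 of 381, 26.6 to 36.2%), intervals that do not overlap. These cells were shallow, with medians of 1829.5 UMIs in WT and 1537 in L151, against 4869 and 4212 in cells with a score above 0. By depth, the share with 0 in Neu_CA3_1 was 73.1% in WT and 83.1% in L151 at 1000 to 2000 UMIs, 12.9 and 21.7% at 2000 to 4000 and 4.55 and 7.84% at 4000 to 8000, and within each of these bands the intervals of the libraries overlap. In L151 at 8000 to 16000 UMIs it was 0 of 45 cells, which allows a share of up to 6.67%. In Neu_CA3_2 the score was 0 in 5 of 34 WT cells (14.7%, 4.95 to 31.1%) and 1 of 71 L151 cells (1.41%, 0.0357 to 7.60%).

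**Figure D5:**
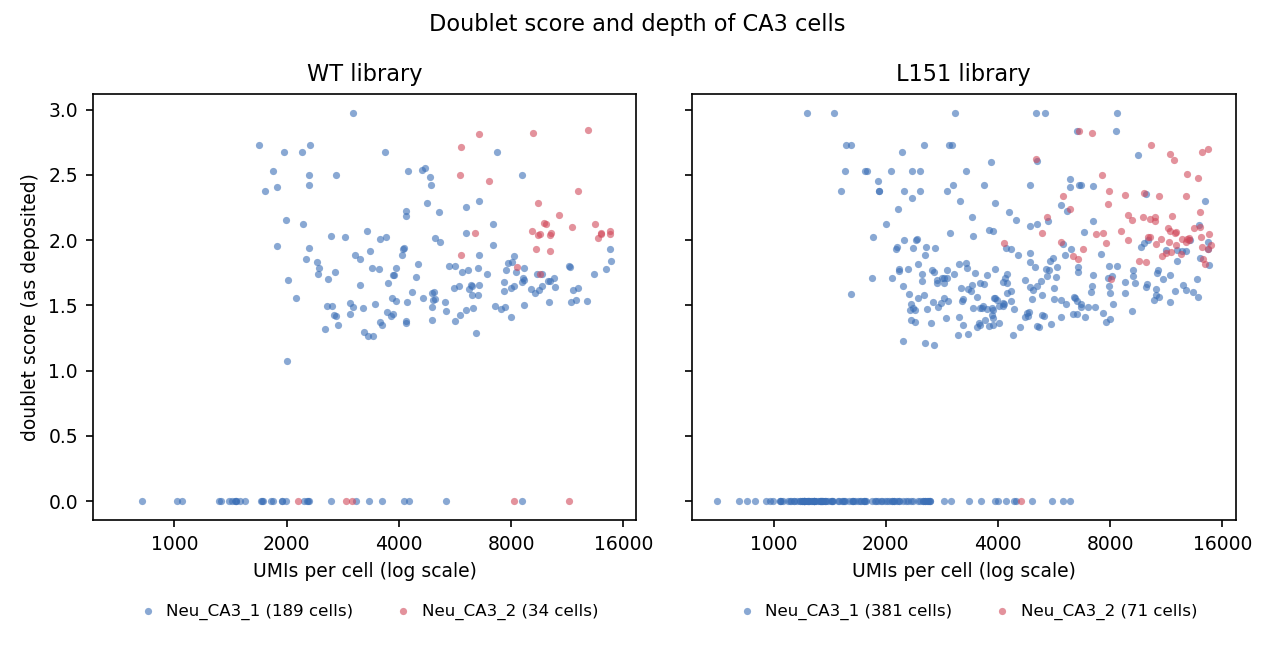
Doublet score as deposited against UMIs per cell (log scale) for each CA3 cell, with Neu_CA3_1 in blue and Neu_CA3_2 in red. Cells with a score of 0 form a line at the bottom that holds mostly shallow Neu_CA3_1 cells, 32 in WT and 119 in L151, and Neu_CA3_2 lies around 2.05 in WT and 2.06 in L151.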

How the data were processed

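The submitters' processing notes name Cell Ranger 3.0.2, Seurat 3.1.3 and mm10. The authors left out 1 sample of each genotype. They kept cells with 320 to 5000 genes and at most 25% mitochondrial content, took out blood cells and doublets called by scran, and clustered on 25 principal components (resolution 1.2). The deposited counts of UMIs and genes per cell are whole numbers and not normalized. The deposited percent of mitochondrial UMIs gives whole UMIs, within 1e-06, when multiplied by the count. The deposited doublet score has no stated scale, so differences and not ratios are given. Cluster names and libraries were used as deposited, and 0 columns were left without a sample.

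Medians, quartiles and shares were computed per cluster and library in Python (3.11.15) with scipy (1.17.1), numpy (2.4.6), pandas (2.3.3) and, for figures, matplotlib (3.10.9). The interval of a ratio of shares is conditional: the exact binomial bounds for L151 cells among the cells of both libraries, rescaled by the library sizes. Bands of UMIs had edges at 500, 1000, 2000, 4000, 8000 and 16000, the upper edge excluded, and medians in a band needed at least 20 cells. Thinning of cells to 1 depth needs counts per gene and was not done. The interval of a ratio of shares, the interval of a single median and the line fit were tested on simulated data. The simulated cells had no mitochondrial part. Matching in bands and the intervals of ratios of medians were not tested in this way. The cells, measures and alternatives were chosen with earlier results of these data known, and the cut-offs of 15, 20 and 24% mitochondrial content and of 14000 UMIs after the values were seen. The genes named are Adcy2 and the markers Grik4 and Slc17a7.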

Additional observations from a re-analysis of the deposited data

Results flagged for a closer look

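For the medians of each of the 5 measures the genotypes differed in opposite directions in the CA3 clusters, which is why these values are listed. With 1 library per genotype the difference between the clusters was not tested. The L151/WT ratio of median UMIs was 0.764 in Neu_CA3_1 and 1.11 in Neu_CA3_2. For genes it was 0.838 and 1.05, and for genes per UMI, which go down as UMIs go up, 1.07 and 0.967. The interval of the UMI ratio over cells was 0.588 to 0.963 in Neu_CA3_1 and 0.914 to 1.40 in Neu_CA3_2, and these overlap. Only for UMIs and genes in Neu_CA3_1 did the interval leave out no difference, so most of the opposite directions are not resolved. The ratios of the mitochondrial percentage, 1.02 and 0.997, and the differences of the median doublet score, -0.105 and 0.000249, include values at or near no difference. By means over cells the mitochondrial percentage was higher in L151 in both clusters, with ratios of 1.06 and 1.136, and an L151 cell had the higher percentage in 51.9% of pairs in Neu_CA3_1 and 57.5% in Neu_CA3_2. No cell of the table has 15000 UMIs or more, and 8 of 71 L151 and 2 of 34 WT cells of Neu_CA3_2 have 14000 or more. The part of this limit in the opposite directions was not tested.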

How the results depend on the processing

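Over 39 results and 129 alternative values, 113 lay within the interval computed for the reported value. Some of the 113 could not move or could hardly move. Neu_CA3_2 has 0 cells under 1000 genes, so its L151/WT values at that limit are the reported ones. The clusters stood in nearly the same proportion in both libraries, so weighting to the WT mix could change little. Most of the intervals used are for ratios or differences of medians, and how often such intervals hold the true value was not tested. The count of 113, and that of 8 in the next sentence, therefore depend on the width of these intervals. On the other side of no difference lay 9, of which 8 belong to results whose own interval includes no difference: the L151/WT ratio of the mitochondrial percentage in Neu_CA3_1 (1.02) and Neu_CA3_2 (0.997), that of genes per UMI (0.967) and the difference of the doublet score (0.000249) in Neu_CA3_2, and the genes of the clusters at like UMIs in WT (1.04) and L151 (1.06). The L151/WT ratio of shares was 1.86 (1.58 to 2.19) for CA3 and 1.91 (1.26 to 2.97) for Neu_CA3_2 over all cells. With at most 10% mitochondrial content the L151/WT ratio of shares was 0.654 (0.164 to 2.39) for Neu_CA3_2, from 5 and 7 cells, and 1.57 for CA3, and Neu_CA3_2 made up 4.58% of CA3 cells in WT and 1.91% in L151. The limit itself removes most of that cluster. The L151/WT ratio of the mitochondrial percentage in Neu_CA3_1 was then 0.922, and 20 values in all, most of them at this limit, could not be computed because fewer than 20 cells were left. Among CA1, CA3 and DG glutamatergic neurons the CA3 ratio was 1.57. With at least 1000 genes the L151/WT ratio of genes in Neu_CA3_1 was 0.9404. Means in place of medians gave Neu_CA3_2/Neu_CA3_1 ratios of the mitochondrial percentage of 2.05 in WT and 2.19 in L151, a Neu_CA3_2 minus Neu_CA3_1 difference of the doublet score of 0.863 in L151, and L151 minus WT differences of -0.238 in Neu_CA3_1 and 0.253 in Neu_CA3_2. Without mitochondrial UMIs the genes per UMI ratio of the clusters was 0.739 in L151, and as log10 genes over log10 UMIs, another scale, it was 0.969 in WT and 0.961 in L151. In bands of half-width on the log scale the genes ratio of the clusters at like UMIs was 0.955 in L151. Bands of UMIs without the mitochondrial part, chosen after the data were seen, gave Neu_CA3_1 ratios of shares from 3.13 at 1000 to 2000 UMIs to 1.49 at 8000 to 16000. The cause of these moves was not tested. No paired analysis was possible because each genotype has 1 library. The number of cells, 34 for Neu_CA3_2 in WT, limits all values of that cluster.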

Other observations

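A few CA3 cells had hardly any mitochondrial UMIs, a group chosen after its values were seen. Under 2% were 3 of 189 WT cells (1.59%, 0.329 to 4.57%) and 11 of 381 L151 cells (2.89%, 1.45 to 5.11%) of Neu_CA3_1, and 4 of 34 WT cells (11.8%, 3.30 to 27.5%) and 1 of 71 L151 cells (1.41%, 0.0357 to 7.60%) of Neu_CA3_2. In Neu_CA3_2 of WT these 4 cells had 2148 to 11444 UMIs and a doublet score of 0, and 4 of the 5 cells of that cluster and library with a score of 0 are these cells. In Neu_CA3_1 the cells under 2% had 1048 to 1714 UMIs in WT and 805 to 6255 in L151, and 3 of 3 and 9 of 11 had a score of 0. Between 5 and 15% lay 1 of 34 WT cells and 7 of 71 L151 cells of Neu_CA3_2, beside 153 of 189 and 293 of 381 of Neu_CA3_1.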
